A study of Mus musculus with 47 samples.

Results

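The aryl hydrocarbon receptor (AHR), its partner, its repressors and its main target genes were followed across the livers of male and female Pxr+/+ and Pxr-/- mice with and without antibiotics (ATB). The members were taken by name, as every gene probe of the array whose gene name was Ahr, Arnt, Ahrr, Cyp1a1, Cyp1a2, Cyp1b1 or Tiparp. This gave 7 genes with 11 probes among the 37074 gene names on the array. Of these, 6 genes with 9 probes were bright enough to be tested, and Ahrr was not. The study asked how liver gene expression in each sex depends on PXR, a nuclear receptor for xenobiotics, and on gut bacteria, and measured liver RNA on 47 single-colour Agilent mouse arrays, each carrying the RNA of a different mouse. The 8 groups were control and ATB-treated mice of each genotype and sex, with 6 mice in each group except the control Pxr-/- males, which had 5. All mice were littermates on the C57BL/6J background from Pxr+/- parents, were 6 months old and were killed at ZT6. ATB mice received ampicillin, neomycin and vancomycin in the drinking water for 2 weeks, and control mice received water without antibiotics. The deletion was inherited and so not limited to the liver, and the sample was whole liver. Each group of the study was housed in 2 cages, and since no source used here ties a mouse to its cage, the part of the cage in any difference was not tested.

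AHR is a transcription factor of the basic helix-loop-helix PAS family that waits in the cytoplasm with HSP90 and its co-chaperones. It binds planar aromatic pollutants, dietary indoles and products of tryptophan breakdown, part of which are made by gut bacteria, then enters the nucleus, pairs with ARNT and binds xenobiotic response elements that share the letters GCGTG. The cytochrome P450 genes Cyp1a1, Cyp1a2 and Cyp1b1 are its best known targets, and Ahrr and Tiparp, which are also induced by the receptor, feed back to repress it. In liver Cyp1a2 is a constitutive gene of pericentral hepatocytes, whereas Cyp1a1 stays low until a ligand is present.

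The windows of 250 bases before the start sites of the members were searched for GCGTG on both strands, because AHR and ARNT act on their targets through it. RefSeq promoters on build GRCm38.p6 were found for 6 members, and no entry was found for Ahr. The letters were present in the windows of 5 members: Arnt, Ahrr, Cyp1a1, Cyp1b1 and Tiparp. Of all 32851 windows of the same length, 28.2% held them. Cyp1a2 had none in its window, and only Ahrr held the longer TNGCGTG, which overlaps the core and was found in 4.1% of all windows. The windows of Cyp1a1, which was called for ATB, of its neighbour Cyp1a2, which was not, and of Tiparp, which differed between the sexes, are shown with the core in capitals, each written 5′ to 3′ on the strand of its gene. They lie at chr9:57697363-57697612 on the plus strand for Cyp1a1, chr9:57683656-57683905 on the minus strand for Cyp1a2 and chr3:65528197-65528446 on the plus strand for Tiparp.
Cyp1a1: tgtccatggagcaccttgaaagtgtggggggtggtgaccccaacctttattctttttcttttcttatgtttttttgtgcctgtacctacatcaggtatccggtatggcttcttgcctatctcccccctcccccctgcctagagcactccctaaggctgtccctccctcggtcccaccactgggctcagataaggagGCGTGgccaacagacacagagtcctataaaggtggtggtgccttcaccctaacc
Cyp1a2: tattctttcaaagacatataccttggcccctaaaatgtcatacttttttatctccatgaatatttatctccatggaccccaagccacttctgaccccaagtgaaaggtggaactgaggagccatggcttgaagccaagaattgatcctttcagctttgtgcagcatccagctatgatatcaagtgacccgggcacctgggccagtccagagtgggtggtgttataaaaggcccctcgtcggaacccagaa
Tiparp: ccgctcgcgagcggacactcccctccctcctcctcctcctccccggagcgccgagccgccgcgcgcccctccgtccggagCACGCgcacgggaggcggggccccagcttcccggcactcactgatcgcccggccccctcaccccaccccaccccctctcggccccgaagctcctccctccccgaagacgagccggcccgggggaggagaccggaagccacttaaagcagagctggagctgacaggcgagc
The core of Cyp1a1 lay 54 bases upstream of the start on the plus strand, and that of Tiparp lay 170 bases upstream, read on the minus strand of its window. Cyp1a1 and Cyp1a2 are divergent neighbours, with start sites 13958 bp apart. A match is a description of letters, and their absence from a window says nothing about binding elsewhere.

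Values are given as the log2 of the median spot signal after normalisation, so that a difference of 1 is a 2-fold change. A probe was called when the Benjamini-Hochberg adjusted p of limma over all 32974 tested probes was at most 0.05 and the fold was above 1.2, and a gene was called when at least 1 of its probes was. Between 31067 and 34458 gene probes were well above background on each array. Background was not subtracted, so the fold of a dim probe is understated. Nr1i2, the gene that encodes PXR, had 1 probe (mm9 chr16:38248745-38248804), which ranged from 10.37 to 11.89 in Pxr-/- mice and from 11.24 to 12.41 in Pxr+/+ mice. These ranges overlapped, and because the part of the gene missing in Pxr-/- mice is not given in the sources used here, the probe does not check the genotype labels. Cyp2c55, described in the study as a PXR target, was at 9.13 or higher in every Pxr-/- mouse and at 8.5 or lower in every Pxr+/+ mouse. It thus separated the genotype labels, but it was higher without PXR, so it does not show a loss of activation by PXR. The reason for this direction was not tested. Xist was at 7.79 or higher in every female and at 4.82 or lower in every male. The tissue carried the signal of liver, with a summed level of 8 hepatocyte markers between 20.62 and 20.9. Because liver is a mixture, fewer cells of a type and less RNA per cell cannot be told apart in any value below.

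**Figure D1:**
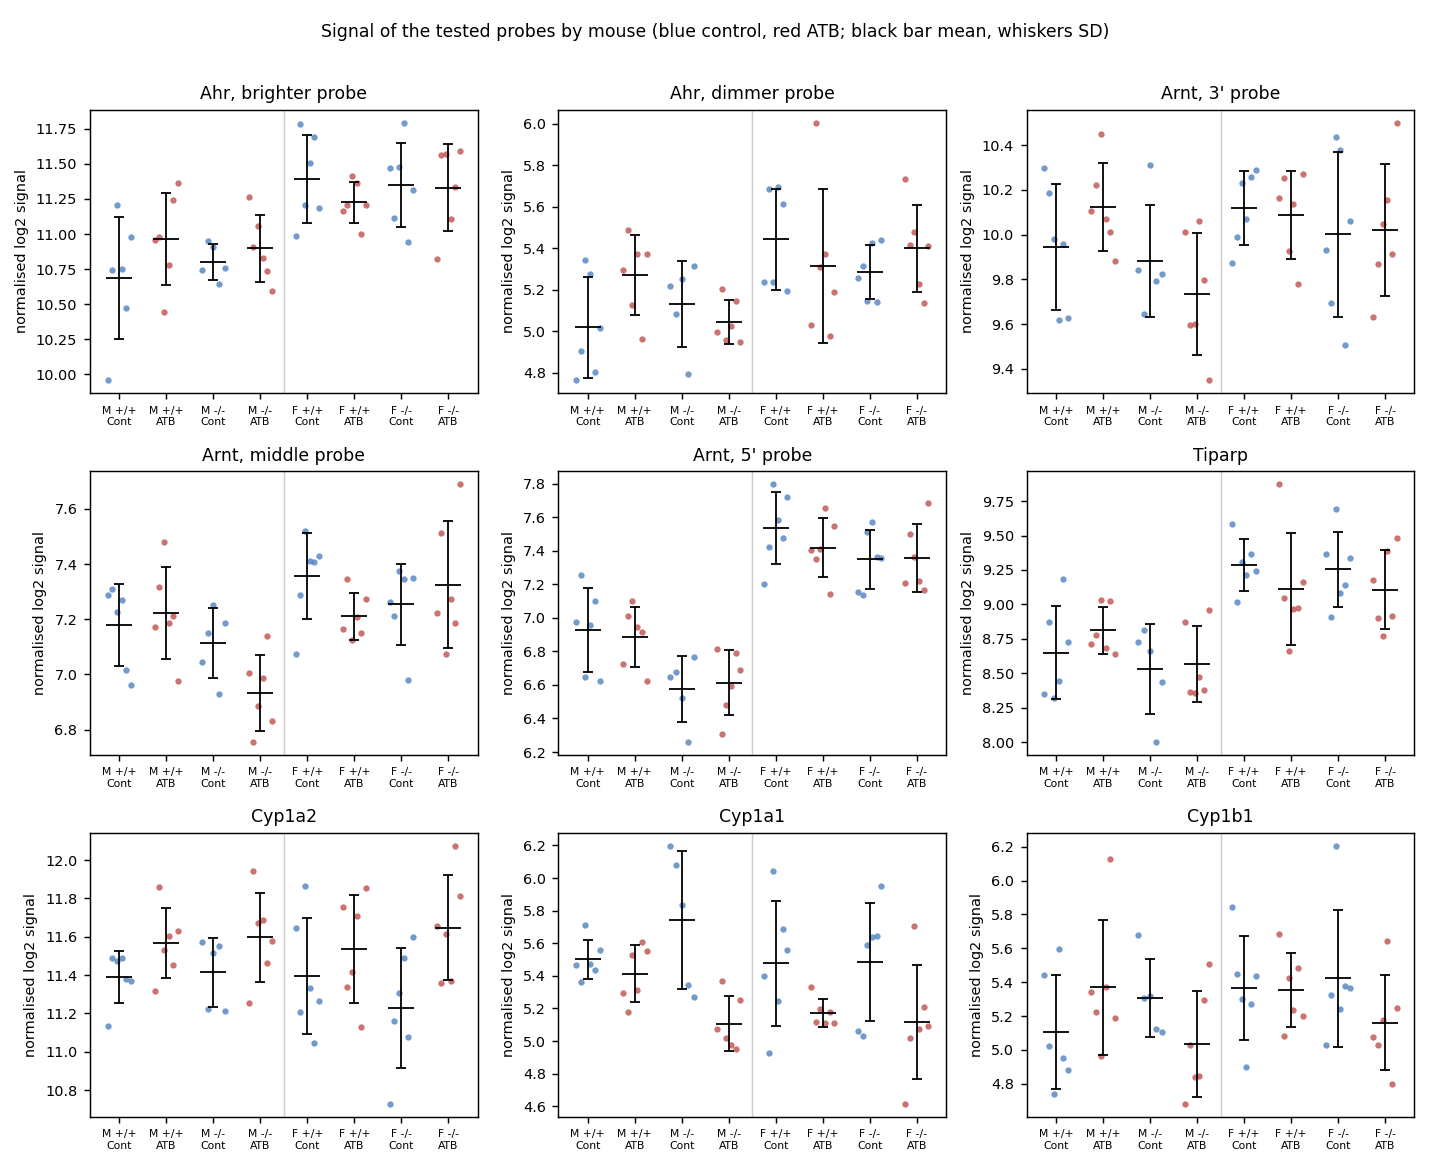
Normalised log2 signal (vertical axis) of the 9 tested probes, 1 panel a probe, in the 8 groups (horizontal axis), with 1 point a mouse, control mice in blue, ATB mice in red, and the group mean ± SD in black. The Arnt 5′ probe, Ahr and Tiparp sit higher in the female groups, and the ATB points of Cyp1a1 sit low in the Pxr-/- males.

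The receptor gene Ahr was higher in females than in males. Ahr was read by a brighter probe (A_55_P2109613, mm9 chr12:36182724-36182783, minus strand) and by a dimmer probe (A_55_P2719822, mm9 chr12:36199083-36199142, minus strand) 16359 bp away. The lowest, median and highest signals of the brighter probe were 9.96, 10.75 and 11.21 in control Pxr+/+ males and 10.99, 11.36 and 11.78 in control Pxr+/+ females. The upper end of the male range overlapped the lower end of the female range. The 5 control Pxr-/- males were at 10.74, 10.95, 10.91, 10.65 and 10.76, and the control Pxr-/- females at 10.95, 11.39 and 11.79 as lowest, median and highest, so that the ranges met. After ATB, the Pxr+/+ values were 10.45, 10.97 and 11.37 in males and 11, 11.21 and 11.41 in females. Here the sexes overlapped widely. The ATB-treated Pxr-/- mice were at 10.6, 10.87 and 11.27 as males and at 10.83, 11.45 and 11.59 as females.

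Averaged over the 4 combinations of genotype and treatment, the brighter Ahr probe was lower in males by 0.49 on the log2 scale (males minus females -0.49, SE 0.08, limma adjusted p = 6.16e-06), a fold of 1.4. The difference was called in control Pxr+/+ mice (-0.71, SE 0.17, limma adjusted p = 0.00134), in control Pxr-/- mice (-0.55, limma adjusted p = 0.0274) and in ATB-treated Pxr-/- mice (-0.43, limma adjusted p = 0.0476), but not in ATB-treated Pxr+/+ mice (-0.26, limma adjusted p = 0.374). The last difference was not shown to be smaller than the others, since no interaction of any member was called. The median of all tested probes was itself lower in males by 0.13 on the same scale, and relative to it Ahr differed by -0.36. With quantile normalisation, which removes that shift, the mean difference was -0.34 (limma adjusted p = 0.000625), while the calls within the Pxr-/- groups were lost. The call in control Pxr-/- mice was also lost without male replicate 2, 5 or 6 or female replicate 3 or 4, and the call in ATB-treated Pxr-/- mice without any of 21 of the 47 mice. The dimmer probe ran the same way with a mean difference of -0.24 (limma adjusted p = 0.002), a fold of 1.18 that is under the threshold. It was called in control Pxr+/+ mice (-0.42, limma adjusted p = 0.0122) and in ATB-treated Pxr-/- mice (-0.35, limma adjusted p = 0.0394), and neither call held under quantile normalisation. The signals of the 2 probes correlated weakly over mice once group and the wash batch of the arrays were removed (r = 0.34, n = 47). Neither ATB nor the genotype gave a call for Ahr. Its mean ATB effect was 0.05, with a 95% interval from -0.12 to 0.22, and its mean genotype effect was 0.03, from -0.14 to 0.20.

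ARNT is the partner that every active AHR needs to bind DNA, and it also serves the hypoxia factors HIF1A and EPAS1. Its 3 probes did not give the same answer on sex. The first 30 of the 60 bases of each are shown, because the result depends on which of them is read. They are written 5′ to 3′ and named by their order along the plus strand of mm9, at chr3:95278469-95278528 (5′ probe, A_55_P2814820), chr3:95296147-95296206 (middle probe, A_55_P2735190) and chr3:95301081-95301140 (3′ probe, A_55_P2100895). No annotation of this build was used, so exons were not assigned.
Arnt 5′ probe: acatttgatcttggaggcaacagatggctt
Arnt middle probe: tcagaactgagtgtgggtgtgaactcccta
Arnt 3′ probe: ccatctgtgctaagccttaactgtggcaaa
The 5′ probe, 22612 bp from the 3′ probe, was clearly lower in males. Its lowest, median and highest signals in control Pxr+/+ mice were 6.62, 6.97 and 7.25 in males and 7.2, 7.53 and 7.8 in females. The 5 control Pxr-/- males were at 6.65, 6.67, 6.52, 6.26 and 6.76, all below the lowest control Pxr-/- female at 7.14. After ATB the sexes did not overlap in either genotype. Pxr+/+ males reached 7.1 and Pxr+/+ females began at 7.14, while Pxr-/- males reached 6.82 and Pxr-/- females began at 7.17.

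The mean sex difference of the Arnt 5′ probe was -0.66 (SE 0.06, limma adjusted p = 1.58e-12), a fold of 1.58, and it was called in each combination, at -0.61, -0.53, -0.77 and -0.74. It held its call under quantile normalisation (-0.48, limma adjusted p = 5.04e-10). The middle probe differed by -0.17 (limma adjusted p = 0.00222, fold 1.13) and the 3′ probe by -0.14 (limma adjusted p = 0.124), and both moved to 0.01 under quantile normalisation. Within the groups, the middle probe was called in ATB-treated Pxr-/- mice only (-0.39, limma adjusted p = 0.00214), a call lost under quantile normalisation. The 95% interval of the 5′ probe, from -0.78 to -0.54, lay apart from that of the 3′ probe, from -0.29 to 0.02, although the difference between probes was not tested. ATB changed none of the 3 probes, with mean effects of 0.01, -0.05 and -0.03 for the 3′, middle and 5′ probes. Between genotypes, the 5′ probe differed on average by -0.22 (Pxr-/- minus Pxr+/+, SE 0.06, limma adjusted p = 0.017), but the fold of 1.16 missed the threshold. The median of all tested probes was -0.07 in this comparison. Under quantile normalisation the 5′ probe differed by -0.14 (limma adjusted p = 0.116).

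Of the 2 repressors induced by AHR, Tiparp was measured and Ahrr was not. Tiparp encodes an ADP-ribosyltransferase that modifies AHR and shuts down its activity. Its probe (A_51_P514961, mm9 chr3:65358749-65358808, plus strand) read 8.32, 8.59 and 9.18 as lowest, median and highest in control Pxr+/+ males and 9.02, 9.28 and 9.58 in control Pxr+/+ females. The ranges touched only at their ends. In control Pxr-/- mice the 5 males, at 8.73, 8.82, 8.66, 8 and 8.44, were all below the females, at 8.91, 9.24 and 9.69. The ATB-treated Pxr-/- males, at 8.36, 8.43 and 8.96, and females, at 8.77, 9.05 and 9.48, overlapped, as did the ATB-treated Pxr+/+ males at 8.64, 8.75 and 9.03 and females at 8.66, 9.01 and 9.87.

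Tiparp was lower in males by 0.55 on average (-0.55, SE 0.08, limma adjusted p = 6.43e-07), a fold of 1.46, and by 0.42 relative to the median of all probes (-0.42). It was called in control Pxr+/+ (-0.64), control Pxr-/- (-0.72) and ATB-treated Pxr-/- mice (-0.54), with limma adjusted p between 0.00319 and 0.0143, and not in ATB-treated Pxr+/+ mice (-0.30, limma adjusted p = 0.274). Under quantile normalisation the mean difference was -0.37 (limma adjusted p = 8.98e-05), and of the separate calls the one in control Pxr-/- mice was kept. Without replicate 6 of the ATB-treated Pxr-/- females, the call in that group was lost (-0.46). The ATB effect was -0.03, with a 95% interval from -0.20 to 0.14. Ahrr, a decoy that competes with AHR for ARNT, had a probe well above background on 9 of the 47 arrays and another on 0 of 47, with group medians of raw log2 signal no higher than 4.98, so its level was not distinguished from background and no difference was tested.

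The 3 wash batches held 23, 16 and 8 mice, so the last value of each set rests on the fewest mice. Within them the mean sex difference was -0.49, -0.61 and -0.24 for the brighter Ahr probe and -0.62, -0.67 and -0.76 for the Arnt 5′ probe. For Tiparp it was -0.52, -0.47 and -0.73. Each was negative in every batch.

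**Figure D2:**
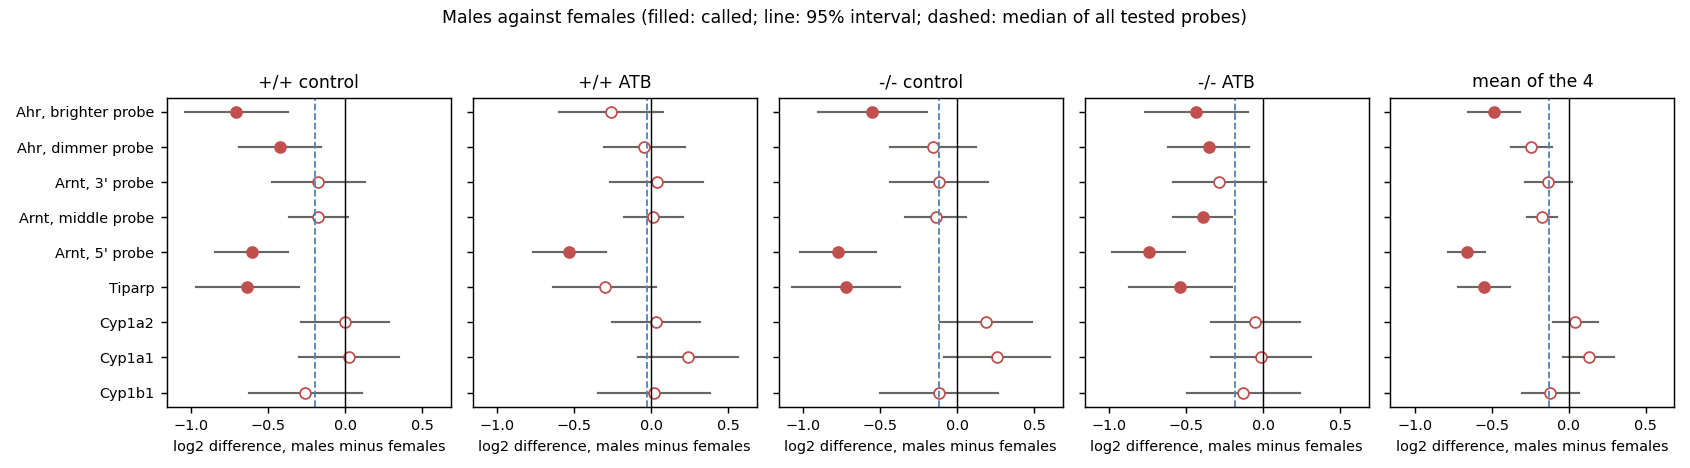
Difference in log2 signal between males and females (males minus females) for each tested probe (vertical axis), in the 4 combinations of genotype and treatment and as their mean, 1 panel each, with 95% intervals; filled points were called and the dashed line is the median of all tested probes. The Arnt 5′ probe is called in all 5 panels at -0.53 to -0.77, and the brighter Ahr probe and Tiparp in 4 of 5.

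Cyp1a1, the monooxygenase regarded as the most sensitive reporter of AHR activation, was the only member called for ATB. Its probe (A_51_P279693, mm9 chr9:57551535-57551594, plus strand) was dim, with log2 signals from 4.62 to 6.2, and in every group 5 or more arrays read it well above background. The clearest difference was in Pxr-/- males. The 5 controls were at 6.2, 6.08, 5.84, 5.34 and 5.27 and the 6 ATB mice ran from 4.95 through a median of 5.05 to 5.37. Of the 6 ATB mice, 5 were below the lowest control. In Pxr-/- females the lowest, median and highest values were 5.03, 5.61 and 5.95 in controls and 4.62, 5.08 and 5.7 with ATB, with a wide overlap. Pxr+/+ females were at 4.93, 5.48 and 6.05 as controls and at 5.11, 5.15 and 5.33 with ATB, so that the ATB range lay inside that of the controls. Pxr+/+ males were at 5.36, 5.47 and 5.71 as controls and at 5.18, 5.42 and 5.61 with ATB, and these ranges overlapped over most of their length.

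The 4 ATB effects on Cyp1a1 were negative: -0.09 (SE 0.16) in Pxr+/+ males, -0.64 (SE 0.17) in Pxr-/- males, -0.30 (SE 0.16) in Pxr+/+ females and -0.37 (SE 0.16) in Pxr-/- females, with limma adjusted p of 0.803, 0.227, 0.515 and 0.36. None passed alone. Their mean, -0.35 (SE 0.08, 95% interval -0.51 to -0.18), passed with a limma adjusted p of 0.00699 and a fold of 1.27, while the median of all probes moved by 0.03. The mean effect was -0.38, -0.32 and -0.41 within the 3 wash batches of the arrays, which held 23, 16 and 8 mice. The response was not shown to depend on PXR: the ATB by genotype interaction was -0.55 in males (95% interval -1.02 to -0.08, limma adjusted p = 0.844) and -0.06 in females (95% interval -0.53 to 0.40). Because background was not subtracted these sizes are compressed, and with the scanner's background-subtracted signal the mean effect was -0.74 (limma adjusted p = 0.0023). With the normexp correction, whose offset shrinks dim probes, it was -0.22, under the fold threshold.

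Cyp1a2, the abundant hepatic enzyme that oxidises caffeine and aromatic amines, had a positive ATB effect in every group but was not called. Its probe (A_52_P595871, mm9 chr9:57528060-57528119, minus strand) had signals between 10.73 and 12.07. Pxr-/- females were at 10.73, 11.23 and 11.6 as controls and at 11.36, 11.64 and 12.07 with ATB as lowest, median and highest, and 4 of the 6 ATB mice were above all 6 controls. In Pxr-/- males the 5 controls were at 11.57, 11.22, 11.52, 11.55 and 11.21, and the ATB range of 11.25 to 11.94 began above only the 2 lowest of them. The control and ATB ranges were 11.14 to 11.49 and 11.32 to 11.86 in Pxr+/+ males, and 11.04 to 11.86 and 11.13 to 11.86 in Pxr+/+ females. The effects were 0.18, 0.18, 0.14 and 0.42 in Pxr+/+ males, Pxr-/- males, Pxr+/+ females and Pxr-/- females. Their mean was 0.23 (SE 0.07, 95% interval 0.09 to 0.38), with a limma adjusted p of 0.0458 and a fold of 1.17 that missed the threshold of 1.2. Within the 3 wash batches, of 23, 16 and 8 mice, the mean was 0.24, 0.22 and 0.22. The adjusted p ranged from 0.0426 to 0.0772 over the alternatives, so that Cyp1a2 stood at the border of the test on both criteria.

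Cyp1a2 is a pericentral gene, and part of the other pericentral markers rose with ATB. Among 10 pericentral hepatocyte markers that did not include Cyp1a2, 4 were called higher with ATB on average and none lower, where 2.66% of all genes were called: Rhbg, an ammonium transporter (0.64, limma adjusted p = 9.18e-07), Oat, ornithine aminotransferase (0.60, limma adjusted p = 5.09e-05), Cyp2e1, the ethanol-oxidising P450 (0.38, limma adjusted p = 0.000611) and Slc1a2, a glutamate transporter (0.29, limma adjusted p = 0.00696). The summed log2 level of these markers was 18.18 to 18.76 in controls, with a median of 18.41, and 18.5 to 19 with ATB, with a median of 18.66. None of 9 periportal and none of 8 hepatocyte markers was called. The part of these markers in the Cyp1a2 values was not tested.

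Cyp1b1, an extrahepatic P450 of the same family found in mesenchymal cells, gave no call in any comparison. Its probe (A_51_P255456, mm9 chr17:80106547-80106606, minus strand) was near background, with group means from 5.03 to 5.42 and a mean ATB effect of -0.07 (95% interval -0.26 to 0.11). The sexes differed by 0.13 for Cyp1a1 (limma adjusted p = 0.179), 0.04 for Cyp1a2 (limma adjusted p = 0.64) and -0.12 for Cyp1b1 (limma adjusted p = 0.257). The 3 Cyp1 genes were thus not called for sex where the receptor, its partner's 5′ probe and Tiparp were. Under quantile normalisation Cyp1a1 was higher in males by 0.25 (limma adjusted p = 0.00961) and Cyp1a2 by 0.18 (limma adjusted p = 0.0392). Cyp1b1 differed by 0 (limma adjusted p = 0.999). The fold of Cyp1a1 and Cyp1a2 stayed under the threshold, so these results depend on the scaling. Cyp1a1 was called higher in males, by 0.50, when the background-subtracted signal was used (limma adjusted p = 0.00972).

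**Figure D3:**
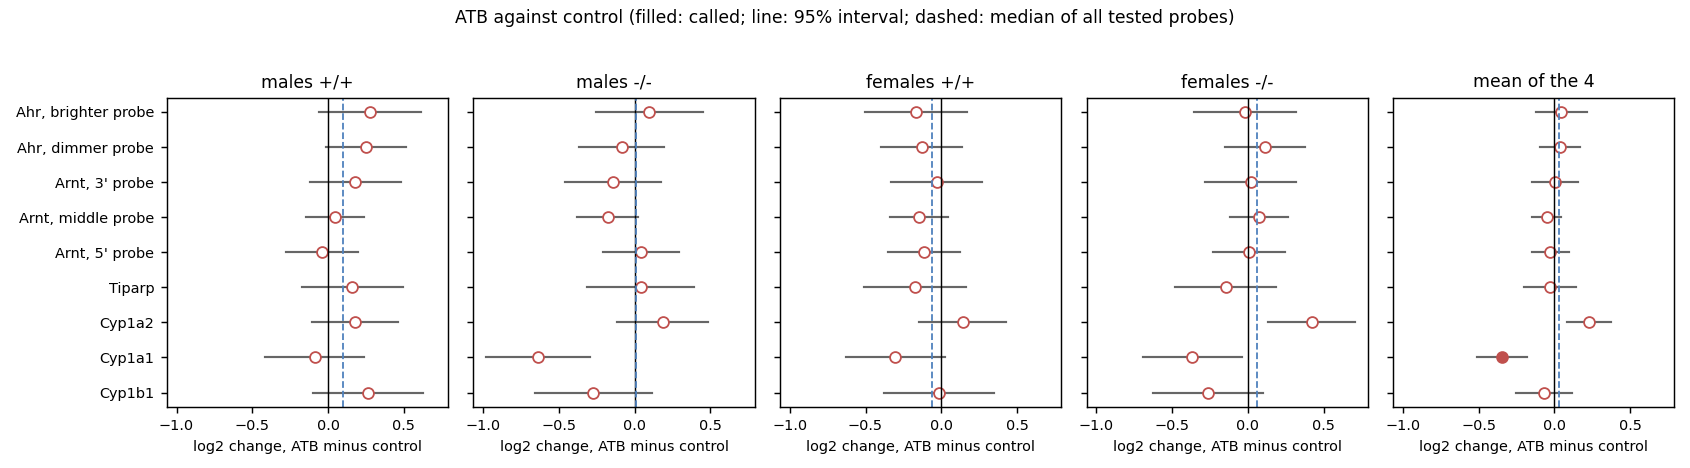
Difference in log2 signal between ATB and control mice for each tested probe (vertical axis) in each genotype and sex and as the mean of the 4 differences, 1 panel each, with 95% intervals; filled points were called and the dashed line is the median of all tested probes. Cyp1a1 in the panel of means, at -0.35, is the only filled point, and Cyp1a2 lies above 0 in every panel.

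The counts of members called are read against the share of all 21873 tested genes called in the same comparison. For ATB, 0 of 6 members were called in each sex and genotype, where 1.3% of genes were called in Pxr+/+ males, 0.11% in Pxr-/- males, 0.0183% in Pxr+/+ females and 0.0411% in Pxr-/- females. For the mean ATB effect 1 of 6 members was called, against 2.66% of all genes. An unadjusted limma p under 0.05 was reached by 0, 1, 0 and 2 members in these groups and by 2 for the mean. Among all 21873 tested genes it was reached by 5006, 2007, 3023 and 3427 in these groups and by 5613 for the mean. For sex, 3 of 6 members were called in control Pxr+/+ mice, 1 in ATB-treated Pxr+/+ mice, 3 in control Pxr-/- mice, 3 in ATB-treated Pxr-/- mice and 3 for the mean, against 36.5%, 14.3%, 18.6%, 30.2% and 29.9% of all genes. With 6 members and backgrounds of this size, the count of members is not a result in itself.

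No member was called for genotype. Among all genes, 0.192% were called in control males, 1.14% in ATB-treated males, 4.05% in control females, 0.229% in ATB-treated females and 4.46% for the mean. In the same order, 1, 1, 0, 0 and 1 members had an unadjusted limma p under 0.05. So had 1470, 6045, 5853, 1519 and 7930 of all 21873 tested genes. In ATB-treated males the 3′, middle and 5′ probes of Arnt differed between Pxr-/- and Pxr+/+ by -0.39, -0.29 and -0.27, with limma adjusted p between 0.101 and 0.174. The median of all probes was -0.13 in this comparison, and under quantile normalisation the 3 values were -0.22, -0.16 and -0.14. No interaction was called either. The shares of all genes called were 0.0183% and 0% for ATB by genotype in males and females, 0.0457% and 0.00457% for ATB by sex in Pxr+/+ and Pxr-/- mice, and 0.0229% and 0.0503% for genotype by sex in control and ATB-treated mice. Members with an unadjusted limma p under 0.05 numbered 2, 0, 1, 0, 0 and 1. Of all 21873 tested genes, 1663, 3055, 3746, 1589, 1497 and 2937 had such a p.

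In the order of the 8 group means, neighbouring groups overlapped for every one of the 9 probes. Groups were sorted by these same means, so overlap of neighbours is likely for any probe and is no result about the members. The means spanned 0.70 for the brighter Ahr probe, 0.76 for Tiparp, 0.96 for the Arnt 5′ probe, 0.63 for Cyp1a1, 0.42 for Cyp1a2 and 0.39 for Cyp1b1. For the Arnt 5′ probe, control Pxr+/+ females were highest at 7.53 ± 0.22 (SD, n = 6) and control Pxr-/- males lowest at 6.57 ± 0.20 (SD, n = 5). For Cyp1a1, control Pxr-/- males were highest at 5.74 ± 0.42 (SD, n = 5) and ATB-treated Pxr-/- males lowest at 5.11 ± 0.17 (SD, n = 6).

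Other genes of the receptor complex, the induced gene battery and tryptophan breakdown were taken as 3 lists. Of 10 tested genes of the complex, 1 was called lower with ATB on average, where 2.66% of all genes were called. It was Hsp90aa1, the inducible form of the HSP90 chaperone (-0.47 by its called probe, SE 0.11, limma adjusted p = 0.0087). The list's median was -0.03, beside 0.03 over all probes. The median over 15 tested battery genes was -0.07. Nqo1, the quinone reductase that is a textbook member of the battery, differed by 0.06 (limma adjusted p = 0.715). Of 12 tested genes that break down tryptophan, Aadat, an aminotransferase that makes kynurenic acid, was called higher (0.27, limma adjusted p = 0.0151), against the same 2.66% of all genes. The list's median was 0.05. The Aadat call lay close to the fold threshold, and it was lost under 4 of 9 alternatives and without any of 19 of the 47 mice.

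For sex, the battery split: 2 of 15 genes were higher in males and 7 lower, where 29.9% of all genes were called, with a median of -0.25 beside -0.13 over all probes. Nqo1 was lower in males (-1.26, limma adjusted p = 6.93e-19), as were Htatip2 (-0.54, limma adjusted p = 3.31e-12), the fatty acid transporter Cd36 (-0.79, limma adjusted p = 4.08e-06) and the hepatokine Fgf21 (-0.81, limma adjusted p = 0.000521). Ugt1a6b (-0.57) belongs to a family with shared exons, so its probe may not read it alone. Higher in males were the glutathione transferase Gsta2 (0.42, limma adjusted p = 0.017) and Ugdh, which makes UDP-glucuronic acid (0.26, limma adjusted p = 0.0092). The Ugdh call lay at the fold threshold, and it was lost under 2 of 9 alternatives and without any of 17 of the 47 mice. In the complex list, the other partners of ARNT, Hif1a (-0.34, limma adjusted p = 0.00109) and Epas1 (-0.27, limma adjusted p = 0.000755), were called lower in males. The Hif1a call was lost under 2 of 9 alternatives and the Epas1 call under 4 of 9. Of the tryptophan genes, Tdo2, the hepatic dioxygenase of the first step (0.50, limma adjusted p = 7.18e-06), and Kyat1 (0.39, limma adjusted p = 6.85e-06) were higher in males, and Kyat3 (-0.76, limma adjusted p = 2.63e-11) and Il4i1 (-0.31, limma adjusted p = 0.00113, lost under other scalings) lower. For the mean genotype effect 4.46% of all genes were called. Pmm1 of the battery (-0.36, limma adjusted p = 0.00586) and Kyat3 (-0.39, limma adjusted p = 0.000747) were lower in Pxr-/- mice, and no complex gene was called. The Pmm1 call was lost under 2 of 9 alternatives, and that of Kyat3 was kept under all 9.

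Many markers of liver cell types were also lower in males, in a comparison where 29.9% of all genes were called, 5735 of them lower by at least 1 probe and 820 higher by at least 1 probe. On average over the 4 combinations, 8 of 8 stellate cell and fibroblast markers, 6 of 8 sinusoidal endothelial markers and 9 of 11 Kupffer cell and macrophage markers were called lower. The summed log2 level of the stellate markers ran from 14.95 to 15.68 in males, with a median of 15.28, and from 15.08 to 16.29 in females, with a median of 15.9. The endothelial markers ran from 13.46 to 14.36 and from 13.59 to 15.03, and the Kupffer markers from 13.41 to 16.14 and from 13.94 to 16.11, so that each pair of ranges overlapped. Lower values were not limited to these cells: 7 of 10 pericentral hepatocyte markers were called lower and none higher, and of 9 periportal markers 4 were lower and 3 higher. Of 8 general hepatocyte markers 1 was lower in males, and their summed level was 20.62 to 20.82 in males and 20.66 to 20.9 in females. The part of these cells in the sex differences of Ahr, Arnt and Tiparp was not tested.

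Genes whose levels followed a member most closely from mouse to mouse, after group and wash batch were removed, were found over all tested genes and 47 mice. Cyp1a1 was followed most closely by Foxo3 (r = 0.73), a transcription factor active in fasting, and Hif3a (r = 0.72), and Tiparp by Cbfa2t2 (r = 0.79). Ahr was nearest to Cep112os2 (r = 0.73), the Arnt 3′ probe to Daam1 (r = 0.83) and Cyp1a2 to Olfr114 (r = 0.75). Cyp1b1 followed Htra3 (r = 0.78), Crispld2 (r = 0.75) and Dpt (r = 0.74), of which Dpt encodes the extracellular matrix protein dermatopontin. The Arnt 3′ probe had an r above 0.5 with 19.4% of all genes, against 0.946% to 4.62% for the other members. These are the highest of many correlations, the mice share slides and normalisation, and they are given as a description. Between members, 15 pairs were compared in the same way, and none had an adjusted permutation p at or under 0.05. Cyp1a1 and Cyp1a2, the divergent neighbours, gave Pearson r = 0.33 (permutation p = 0.0567, adjusted 0.425) and Spearman rho = 0.23 (permutation p = 0.152, adjusted 0.583), and r = 0.27 without the 2 mice farthest from the median.

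**Figure D4:**
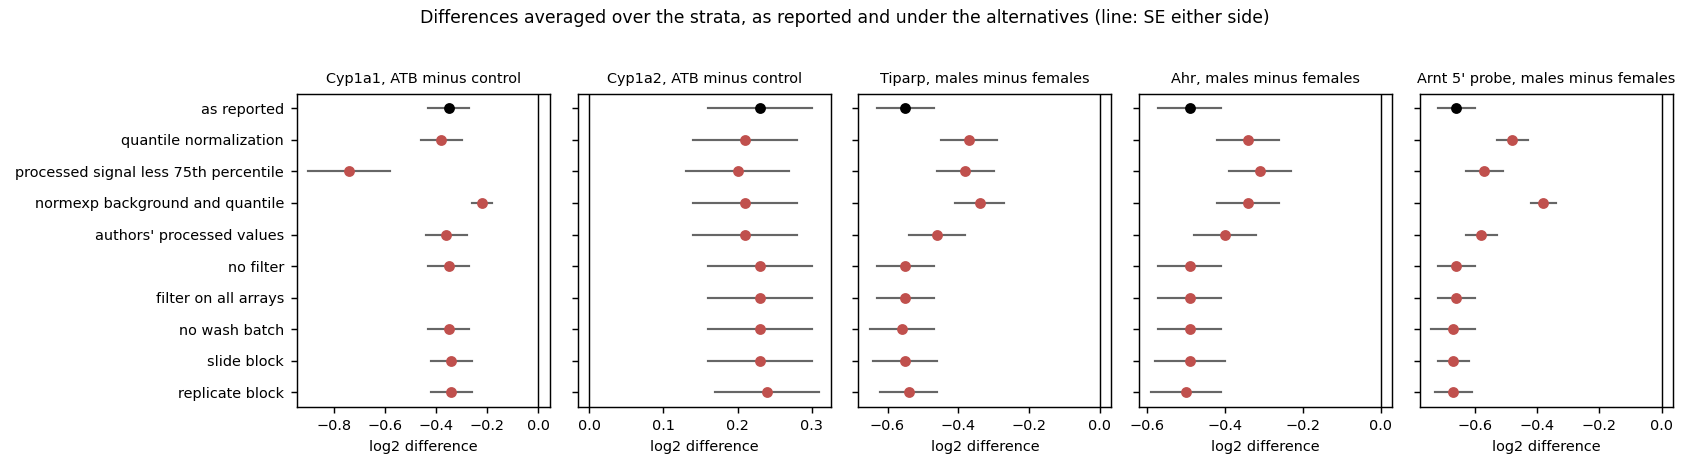
Estimated log2 difference (± SE) under each processing alternative, 1 panel each for the mean ATB effect on Cyp1a1 and Cyp1a2 and for the mean difference males minus females of Tiparp, Ahr and the Arnt 5′ probe. Every estimate kept its sign, with Cyp1a1 between -0.74 and -0.22.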

How the data were processed

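RNA from 47 whole livers was read on single-colour Agilent Sureprint G3 mouse arrays. Per the labels and the submitters' processing notes, the authors scanned the arrays with Agilent Feature Extraction 10.10.1.1 and analysed them with limma. The deposited scanner files hold raw signal intensity for each spot with mm9 probe positions, and the authors also deposited a table of processed log2 values.

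The log2 of the median signal intensity was used, as in the study's methods, without background subtraction. Of the spot values, 422 flagged by the scanner software were left out. A probe was kept if 5 or more arrays of any group read it well above background, which left 32974 of 56605 probes and 21873 genes. The difference between the 3 wash batches was removed with the group kept, and the values were scaled after the CrossNorm idea named in the methods: columns of 1 array from each group were stacked, quantile normalised and averaged over 300 random draws. The authors' own filter and stacking are not given in the sources used here. Over 32791 shared probes, each of the 47 columns of the authors' log2 table correlated best with the log2 scanner signal of its own array, with a lowest r of 0.9983.

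Probe effects were fitted in R 4.3.3 with limma 3.58.1, with the 8 groups and the wash batch as terms. The comparisons were ATB against control, Pxr-/- against Pxr+/+ and males against females within each combination of the other factors, the means of each over its 4 combinations, and 6 interactions, 21 in all. Adjusted p-values are Benjamini-Hochberg values over all tested probes of a comparison, at 0.05, with a fold above 1.2. In list medians, summed levels and correlations, a gene with several probes is represented by the one with the highest mean signal. A list gene counted as called if any of its probes was, and its values are then those of the called probe with the lowest p. Every probe of a member is given. Gene names follow the scanner files, with 1535 probes updated to current symbols. Fitting was tested on simulated data. For pairs of members, deviations from group and wash batch were permuted within groups 100000 times, two-sided. Genes named beside the members are those of the pathway and cell marker lists that were called, and the genes most correlated with each member; a few list genes are not reported here. The members and lists were chosen with earlier results of these data known, so they are no independent support of any pattern.

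Samples were grouped by their titles. The number of mice limits the precision, and p-values measure the spread between mice that share cages. Signals of the 75th percentile spot ran from 306 to 492.5 across arrays and the median background from 15 to 21. Other scalings, background corrections, filters, blocks and the omission of each mouse were tried.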

Additional observations from a re-analysis of the deposited data

Results flagged for a closer look

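In 72 combinations of a tested probe and a group, the mouse at the end of the range stood apart from the others by Dixon's criterion in 3, and chance alone flags about 1 in 20. Cyp1a2 was at 11.14 in replicate 1 of the control Pxr+/+ males, the lowest of 6. Cyp1b1 was at 6.13 in replicate 5 of the ATB-treated Pxr+/+ males and at 6.2 in replicate 3 of the control Pxr-/- females, each the highest of 6. Without the last of these mice the count of members called for sex in control Pxr-/- mice was 2 in place of 3, through Ahr.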

How the results depend on the processing

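Over 10 alternatives, 20 values of members gave 189 comparisons with the value reported, of which 157 kept their side of the threshold, 30 no longer passed, 2 newly passed and none changed sign. Of 207 counts of members called, 7 changed by more than 1.5 times. In ATB-treated Pxr-/- mice the sex count fell from 3 to 1 with quantile normalisation, with the background-subtracted processed signal and with normexp, and in control Pxr+/+ mice it fell from 3 to 1 with the processed signal, in each case leaving Arnt by its 5′ probe. With normexp, 1 member, Cyp1a1, was called for ATB in Pxr-/- males (-0.41, limma adjusted p = 0.026), and 0 for the mean ATB effect, where Cyp1a1 at -0.22 (limma adjusted p = 0.000733) missed the fold threshold. A filter that asked for a signal well above background in every one of the 47 mice also gave 0, because Cyp1a1 was then not tested and 4 members remained. Of 31 values of list genes, 249 of 277 comparisons kept their side, 28 did not and none changed sign. Genes called for sex numbered 6605 in ATB-treated Pxr-/- mice and 3327, 3823 and 2590 under the same 3 scalings, and 7984 in control Pxr+/+ mice and 3980, 4640 and 3120. The cause of these changes was not tested.

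Each of the 47 mice was left out in turn without repeating the normalisation. The count for the mean ATB effect stayed at 1, with Cyp1a1 from -0.38 to -0.32 (limma adjusted p from 0.00241 to 0.0141). The sex count in ATB-treated Pxr-/- mice ranged from 1 to 3, being 1 without replicate 6 of the females of that group, and in control Pxr-/- mice from 2 to 3. The other counts did not move. Fits with only the groups compared were not made for means over groups.

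The replicate numbers did not pair the mice: deviations of mice with the same number had a median correlation of -0.05, and 34 of 161 pairs were above 0.1. With the replicate number as a block the mean ATB effect on Cyp1a1 was -0.34 (limma adjusted p = 0.00647), the brighter Ahr probe lost its sex call in ATB-treated Pxr-/- mice (limma adjusted p = 0.0504), and no count of members called changed. Signal over background limits Cyp1a1, Cyp1b1, the dimmer Ahr probe and Ahrr, whose folds are understated or could not be measured.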
